A study of Mus musculus with 3 samples.

Results

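The genes described here are 43 genes of the unfolded protein response and the integrated stress response, out of 12393 named genes on the array. They were taken by gene symbol, with all of their probe sets, which made 89 of 22690 probe sets. Every one of the 43 genes has at least 1 probe set of its own, and 26 have 2 or more. By role they are 15 chaperones and folding enzymes of the endoplasmic reticulum (ER), 4 genes of ER-associated degradation, 13 sensors, regulators and transcription factors, and 11 targets of the transcription factors ATF4 and CHOP.

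The series measured RNA in C2C12 cells, a mouse myoblast line, in 3 groups of 1 array each. The groups are cells transfected with DGKzeta (diacylglycerol kinase zeta, which turns diacylglycerol into phosphatidic acid), cells transfected with EGFP (enhanced green fluorescent protein), and untreated cells. Per the labels, all 3 carry the time 12 h, cells were plated 18 h before transfection, and the reagent was FuGene. The labels do not give the share of cells that took up a construct, and the untreated group is not described as having received the reagent. With 1 array per group no difference has a replicate check, no p-value is given, and every difference below is one between these arrays.

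Values are MAS5 signals, intensities on a linear scale that condense the probes of a probe set to 1 number. A probe set was counted as measured on an array at a signal of 107 or more, the median of all values pooled, and lower signals were set to this floor before a ratio was taken, so that such a ratio is a bound. A gene is given by its brightest probe set unless stated otherwise. By it, 36 members were measured on all 3 arrays, 5 on 1 or 2 arrays, and 2 (Ern1 and Vldlr) on none. Probe sets whose name ends in _s_at or _x_at may hold probes that match other transcripts too.

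Proteins that enter the secretory path fold in the ER with the help of chaperones and disulfide isomerases. When unfolded protein builds up there, 3 kinds of sensor in the ER membrane respond: ATF6 is cut to release a transcription factor, IRE1 (encoded by Ern1) splices the mRNA of Xbp1, and PERK (encoded by Eif2ak3) phosphorylates the translation factor eIF2alpha. Phosphorylated eIF2alpha lowers general translation and favours that of ATF4, and other kinases reach the same step when amino acids are short or double-stranded RNA is present, which is why this arm is called the integrated stress response. Arrays of this kind read the level of an mRNA, not splicing of Xbp1, cutting of ATF6 or phosphorylation.

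Many chaperone promoters carry the ER stress response element, which ATF6 and XBP1 recognise with the help of NF-Y, and ATF4 targets can carry the C/EBP-ATF response element. These elements are shown because they mark part of each of the 2 arms of the list by sequence, independently of the arrays. Promoters were taken from RefSeq (GRCm38.p6), which held 39 of the 43 members, and the 250 bases before each annotated start were searched on both strands. The ER stress response element, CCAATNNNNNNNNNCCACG, was found before 35 of 27025 genes (0.13%). Of these, 8 were members: 7 of 13 chaperone and folding genes, 1 of 4 degradation genes (Syvn1), 0 of 12 sensors and factors and 0 of 10 ATF4 and CHOP targets. In the stretches below, each written on the strand of its gene, capitals mark the element. In Creld2 the element lies on the opposite strand and is read here as its reverse complement.
Hspa5, chr2:34771995-34772073, plus strand: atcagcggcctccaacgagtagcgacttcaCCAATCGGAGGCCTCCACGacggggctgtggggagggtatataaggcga
Hsp90b1, chr10:86705608-86705686, minus strand: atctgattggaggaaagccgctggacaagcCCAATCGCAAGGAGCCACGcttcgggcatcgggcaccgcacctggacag
Canx, chr11:50325770-50325848, minus strand: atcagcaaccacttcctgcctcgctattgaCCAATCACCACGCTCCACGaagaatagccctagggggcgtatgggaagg
Dnajc3, chr14:118937797-118937875, plus strand: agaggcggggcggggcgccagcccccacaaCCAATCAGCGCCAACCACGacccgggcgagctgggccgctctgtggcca
Creld2, chr15:88819490-88819568, plus strand: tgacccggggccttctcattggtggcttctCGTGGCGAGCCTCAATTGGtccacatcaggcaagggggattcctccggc
Syvn1, chr19:6046502-6046575, plus strand: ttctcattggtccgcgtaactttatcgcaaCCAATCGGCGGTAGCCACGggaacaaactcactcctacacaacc

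The element began between position -212 (Hsp90b1, which has a second match) and position -44 (Syvn1), counted from the start site, and at -65 in Hspa5. A related form, the ER stress response element II (ATTGG, 1 base of any kind and CCACG), was found before 10 of 27025 genes (0.037%), and Herpud1 was the 1 member among them. The core of the unfolded protein response element, TGACGTG, was found before 499 genes (1.85%) and before 1 member, Hspa5.
Herpud1, chr8:94386347-94386417, plus strand: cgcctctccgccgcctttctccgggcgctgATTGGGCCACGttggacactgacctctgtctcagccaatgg

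The C/EBP-ATF response element, TGATGNAA, was found before 1056 of 27025 genes (3.91%) and before 7 of 39 members. They were 4 of 10 ATF4 and CHOP targets (Chac1, Asns, Slc7a11 and Vldlr), 2 of 12 sensors and factors (Atf3 and Nupr1) and Herpud1, with 0 of 13 chaperone genes. Slc7a11 has 1 match on each strand close together. A match says only that these letters are present, and no match in this window says nothing about the factor.
Slc7a11, chr3:50443642-50443709, minus strand: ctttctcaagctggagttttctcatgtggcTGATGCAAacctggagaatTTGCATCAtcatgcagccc
Asns, chr6:7693210-7693262, minus strand: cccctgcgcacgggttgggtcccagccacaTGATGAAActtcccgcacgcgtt
Chac1, chr2:119351019-119351086, plus strand: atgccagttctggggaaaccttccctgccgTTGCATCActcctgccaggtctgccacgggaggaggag
Nupr1, chr7:126625543-126625610, minus strand: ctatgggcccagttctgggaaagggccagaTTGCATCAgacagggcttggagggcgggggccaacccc

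**Figure D1:**
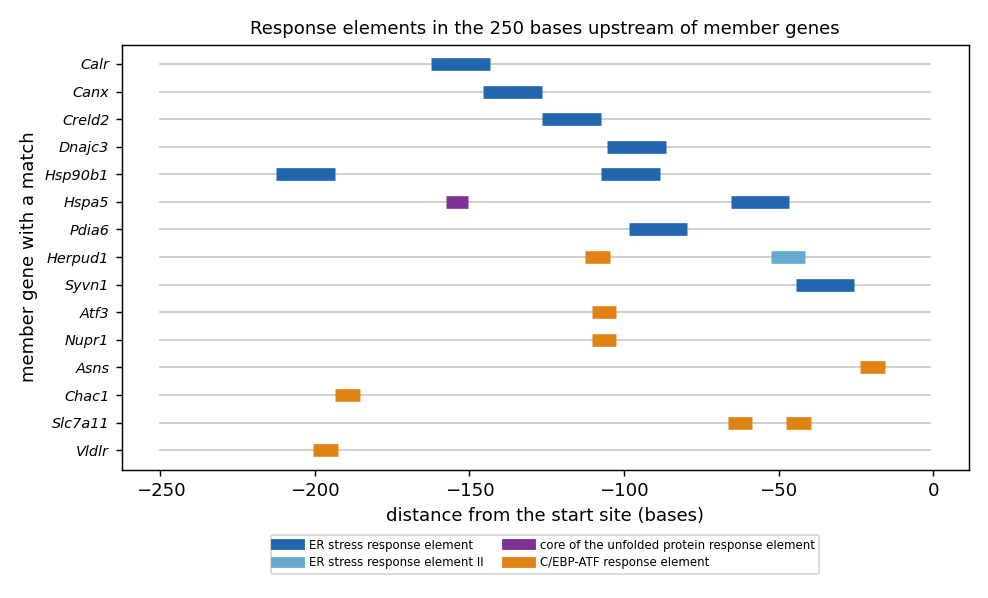
Positions of 4 response elements in the 250 bases before the annotated start of the 15 member genes with a match, with the distance from the start site in bases on the horizontal axis. ER stress response elements (dark blue) lie before chaperone genes and Syvn1, and C/EBP-ATF response elements (orange) before Herpud1, Atf3, Nupr1 and 4 ATF4 and CHOP targets.

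Most of the 43 genes had similar signals in the 3 cultures. Against EGFP cells, 1 of 41 measured members (Trib3) was at least 2-fold higher in DGKzeta cells, where 0.347% of all 6926 measured genes were, and 2 members (Atf5 and Syvn1) were at least 2-fold lower, where 2.84% of all genes were. Trib3 was counted there through DGKzeta cells alone, since its signal in EGFP cells lay just under the floor. Against untreated cells, 2 of 40 members (Trib3 and Canx) were at least 2-fold higher in DGKzeta cells, where 1.34% of 6866 genes were, and 0 were 2-fold lower, where 2.8% were. Between EGFP and untreated cells, 1 of 40 members (Canx) was at least 2-fold higher, where 0.361% of 6932 genes were, and 0 were 2-fold lower, where 0.303% were. No member reached 3-fold in either direction, a size that 0.476% of all genes reached in DGKzeta over EGFP, 0.801% in DGKzeta over untreated and 0.0577% in EGFP over untreated.

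The balance of all genes past 2-fold depended on how the arrays were scaled. In DGKzeta over EGFP 24 genes were higher and 197 lower as deposited, 51 higher and 107 lower after quantile normalization, 41 higher and 148 lower where medians were set equal over probe sets at or above the floor on every array, and 164 higher and 51 lower where they were set equal over all the named ones. In DGKzeta over untreated the same order of scalings gave 92 higher and 192 lower, 129 and 135, 122 and 147, and 253 and 96. In EGFP over untreated it gave 25 higher and 21 lower, 21 and 27, 22 and 22, and 9 and 31.

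The median log2 ratio of the members lay close to that of all genes in each comparison. It was 0.03 in DGKzeta over EGFP, where all genes had -0.02, 0.07 in DGKzeta over untreated, where all genes had -0.02, and 0.01 in EGFP over untreated, where all genes had 0.02. In DGKzeta over EGFP 21 members were above 0 and 20 below, in DGKzeta over untreated 25 above and 15 below, and in EGFP over untreated 20 above and 20 below. Over all genes the counts above and below 0 were 3284 and 3642, 3317 and 3549, and 3723 and 3209 in the same order. Both comparisons of DGKzeta cells share the DGKzeta array, and both comparisons with untreated cells share the untreated array.

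The size of a ratio can be set against how far 2 probe sets of 1 gene differ on the same RNA. From 2245 genes whose 2 brightest probe sets were both measured on all 3 arrays, the SD of 1 probe set, in log2 units, was 0.40 in DGKzeta over EGFP, 0.50 in DGKzeta over untreated and 0.27 in EGFP over untreated. Among the 17 members with 2 such probe sets, the median absolute difference between them was 0.17, 0.31 and 0.18 in the same order of comparisons, and they differed in sign in 7, 8 and 8 members. This spread covers probes, not cultures.

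**Figure D2:**
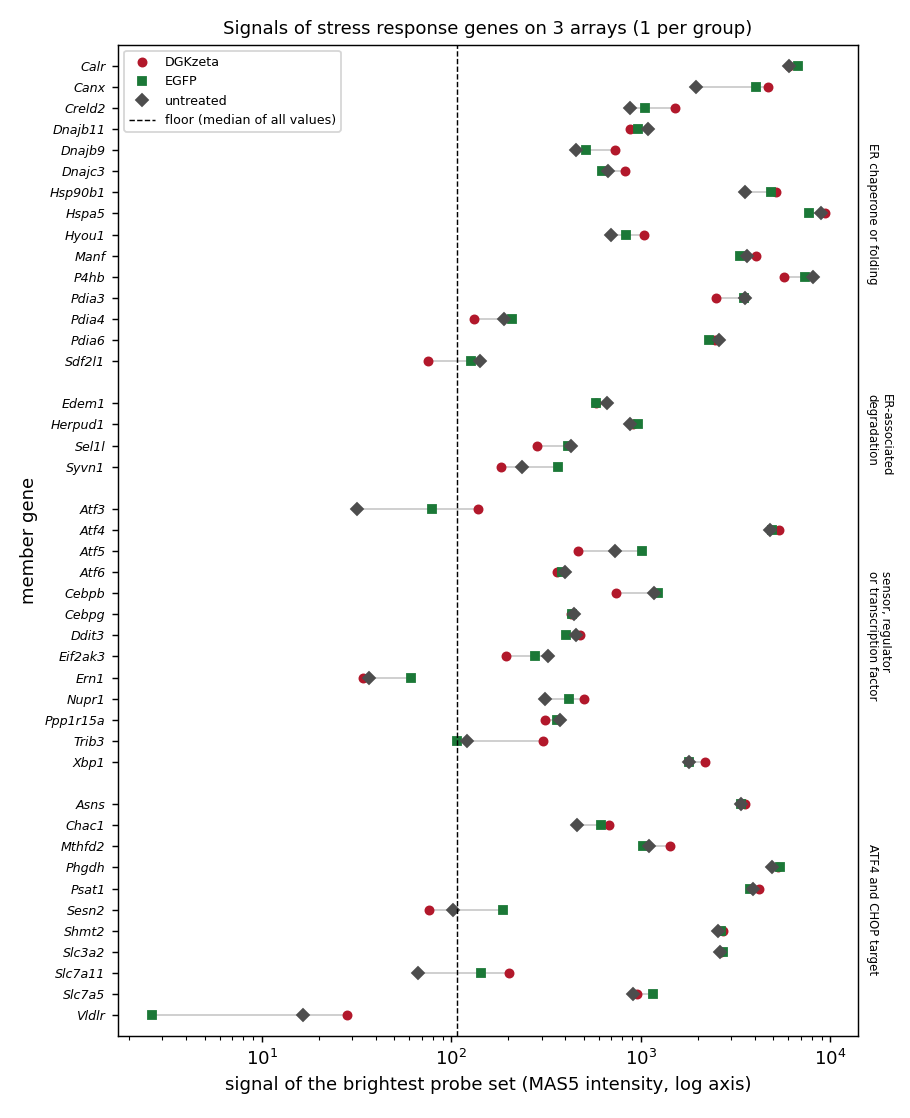
Signals of the brightest probe set of each of the 43 members (log axis, MAS5 intensity) on the DGKzeta (circles), EGFP (squares) and untreated arrays (diamonds), 1 array per group, ordered by role, with the floor of 107 as a dashed line. Most genes have their 3 points close together, and those with the widest gaps above the floor are Trib3, Canx, Atf5 and Syvn1; levels of different genes are not comparable, since probe sets differ in brightness.

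Among chaperones, Hspa5, the main Hsp70 chaperone of the ER and the gene most often read as a sign of ER stress, was nearly level. It had a signal of 9319.7 in DGKzeta cells, 7713 in EGFP cells and 8929 in untreated cells, and its other probe set had 4831, 5007 and 4778 in the same order. The log2 ratio of DGKzeta over EGFP was 0.27 by the first and -0.05 by the other, both within the spread of a single probe set. Calr, which encodes the lectin chaperone calreticulin, had 6075, 6718 and 6035 in DGKzeta, EGFP and untreated cells, and its 3 probe sets gave log2 ratios of -0.22 to -0.15 in DGKzeta over EGFP.

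Canx, which encodes calnexin, the membrane-bound partner of calreticulin, stood apart in untreated cells. Its brightest probe set had a signal of 4665 in DGKzeta cells and 4042 in EGFP cells, against 1953 in untreated cells, so both transfected cultures were high and the untreated one low. DGKzeta cells were 2.39-fold and EGFP cells 2.07-fold above untreated cells by it, and DGKzeta cells were 1.15-fold above EGFP cells. The other 2 Canx probe sets gave smaller ratios in the same direction, with log2 ratios of 0.38 and 0.51 in DGKzeta over untreated and 0.43 and 0.19 in EGFP over untreated, where the brightest had 1.26 and 1.05. The brightest is an _s_at probe set, and without such probe sets Canx was under 2-fold in every comparison.

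Hsp90b1, the Hsp90 chaperone of the ER, had probe sets that disagreed. The brighter had 5183 in DGKzeta, 4837 in EGFP and 3537 in untreated cells, while the other had 1794, 2393 and 2647. The order of the cultures was thus opposite, with log2 ratios of 0.55 and -0.56 in DGKzeta over untreated cells. Hyou1, a nucleotide exchange factor for the chaperone that Hspa5 encodes, had 1036 in DGKzeta cells, 837 in EGFP cells and 695 in untreated cells, a log2 ratio of 0.31 over EGFP and 0.58 over untreated cells. Its second probe set was above the floor in EGFP cells alone, at 54.2, 189 and 88.6, a log2 ratio of at most -0.82 in DGKzeta over EGFP.

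J-domain partners of the same chaperone did not move as 1 group. Dnajb9 had 731 in DGKzeta cells, 515 in EGFP cells and 456 in untreated cells, a log2 ratio of 0.51 over EGFP and 0.68 over untreated cells. Dnajb11 had 875, 965 and 1095 in the same order, with log2 ratios of -0.14 and -0.32. Dnajc3, which also binds PERK, had 823, 622 and 668, a log2 ratio of 0.40 in DGKzeta over EGFP by its brightest probe set and of -0.23 to 0.42 by 3 others. In DGKzeta over untreated cells it had 0.30 by the brightest and -0.52 to 0.49 by these 3. Sdf2l1, a partner of Dnajb11, was near the floor at 75.7, 127 and 142, so its log2 ratios of -0.25 over EGFP and -0.40 over untreated cells are bounds.

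Creld2 and Manf encode small secreted ER proteins that are induced by ER stress. Creld2 had a signal of 1516 in DGKzeta cells, 1054 in EGFP cells and 875 in untreated cells. This was the highest log2 ratio of the 15 chaperone genes in DGKzeta over EGFP, at 0.52, and 0.79 in DGKzeta over untreated cells. Manf had 4061, 3345 and 3621 in the same order, with log2 ratios of 0.28 and 0.17.

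Of the 4 disulfide isomerases on the list, which make and reshuffle disulfide bonds, 3 had their lowest signal in DGKzeta cells. P4hb had 5708 in DGKzeta cells, 7353 in EGFP cells and 8089.8 in untreated cells. Pdia3, which works with calnexin and calreticulin, had 2497, 3499 and 3532, and Pdia4 had 132, 209.5 and 189. Their log2 ratios in DGKzeta over EGFP were -0.37 for P4hb, -0.49 for Pdia3 and -0.67 for Pdia4, and Pdia6 had 0.11 with signals of 2473, 2299 and 2578. These 3 ratios stayed below 0 under each of the other 3 scalings of the arrays, though P4hb came to -0.0015 where array medians were set equal over the named probe sets. Each has 1 measured probe set, and this grouping was made after the values were seen. Of all genes, 3642 of 6926 were below 0 in DGKzeta over EGFP and 3549 of 6866 in DGKzeta over untreated. The share of all genes with their lowest signal in DGKzeta cells was not counted.

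Over all 15 chaperone and folding genes the median log2 ratio was 0.11 in DGKzeta over EGFP, with 9 above 0, 0.06 in DGKzeta over untreated, with 9 above 0, and -0.01 in EGFP over untreated, with 7 above 0. Sdf2l1 was under the floor in DGKzeta cells, so it could only lie below 0 in both DGKzeta comparisons. When the probe sets of each gene were averaged, the medians of both DGKzeta comparisons were -0.14 and -0.01, so their direction rests on the choice of probe set. The 8 members that hold the ER stress response element had a median of 0.16 in DGKzeta over EGFP, within a range of -1.01 to 0.52. The 29 other measured members with a promoter in the table had -0.02, within -1.13 to 1.51, so the ranges of both overlapped widely. The medians with and without the element were 0.18 and 0.06 in DGKzeta over untreated and 0.21 and -0.0034 in EGFP over untreated, and some ratios of members without it are bounds. These medians rest on brightest probe sets and on the deposited scaling alone. In DGKzeta over EGFP, Hspa5, Hsp90b1, Canx and Dnajc3 were above 0 by the brightest and below 0 by at least 1 other probe set. Further probe sets of Canx and Dnajc3 were above 0.

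The genes of ER-associated degradation, which carries misfolded proteins to the proteasome, differed in how far DGKzeta cells were below EGFP cells. Syvn1, the ubiquitin ligase at the centre of this path, had a signal of 182 in DGKzeta cells, 368 in EGFP cells and 236 in untreated cells, so EGFP cells were the highest. That is 2.02-fold lower than in EGFP cells, just past the 2-fold rule, and a log2 ratio of -0.37 against untreated cells. It was under 2-fold with each of the other 3 scalings, with log2 ratios between -0.92 and -0.65 over EGFP.

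Sel1l encodes the adaptor that holds the ligase of Syvn1 in place, and 3 of its probe sets had their lowest signal in DGKzeta cells. The brightest had 282 in DGKzeta cells, against 414 in EGFP and 429 in untreated cells, the next 161, against 265 and 259, and the third 122, against 259.6 and 239.8. EGFP and untreated cells were close together by each, with untreated cells higher by the first and EGFP cells higher by the others. The log2 ratios of DGKzeta were -0.55, -0.72 and -1.09 over EGFP cells and -0.60, -0.69 and -0.97 over untreated cells.

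The other members of this path were closer to level in DGKzeta over EGFP. Herpud1, an ER membrane protein that joins the same complex and is a common marker of ER stress, had 909 in DGKzeta, 972 in EGFP and 879 in untreated cells by its brighter probe set and 493, 595 and 533 by the other. Edem1, which marks misfolded glycoproteins for removal, had 577, 581 and 666 by its brighter probe set and 330, 312 and 423 by the other. By that other probe set, DGKzeta cells had a log2 ratio of -0.36 and EGFP cells one of -0.44 over untreated cells. The log2 ratios in DGKzeta over EGFP were -0.10 for Herpud1 and -0.01 for Edem1 by the brighter probe sets, and -0.27 and 0.08 by the others. The median of the 4 genes was -0.33 in that comparison, with 0 of 4 above 0. It was 0.04, with 2 of 4 above 0, where array medians were set equal over the named probe sets. All genes had -0.02 and 0.33 in the same order.

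**Figure D3:**
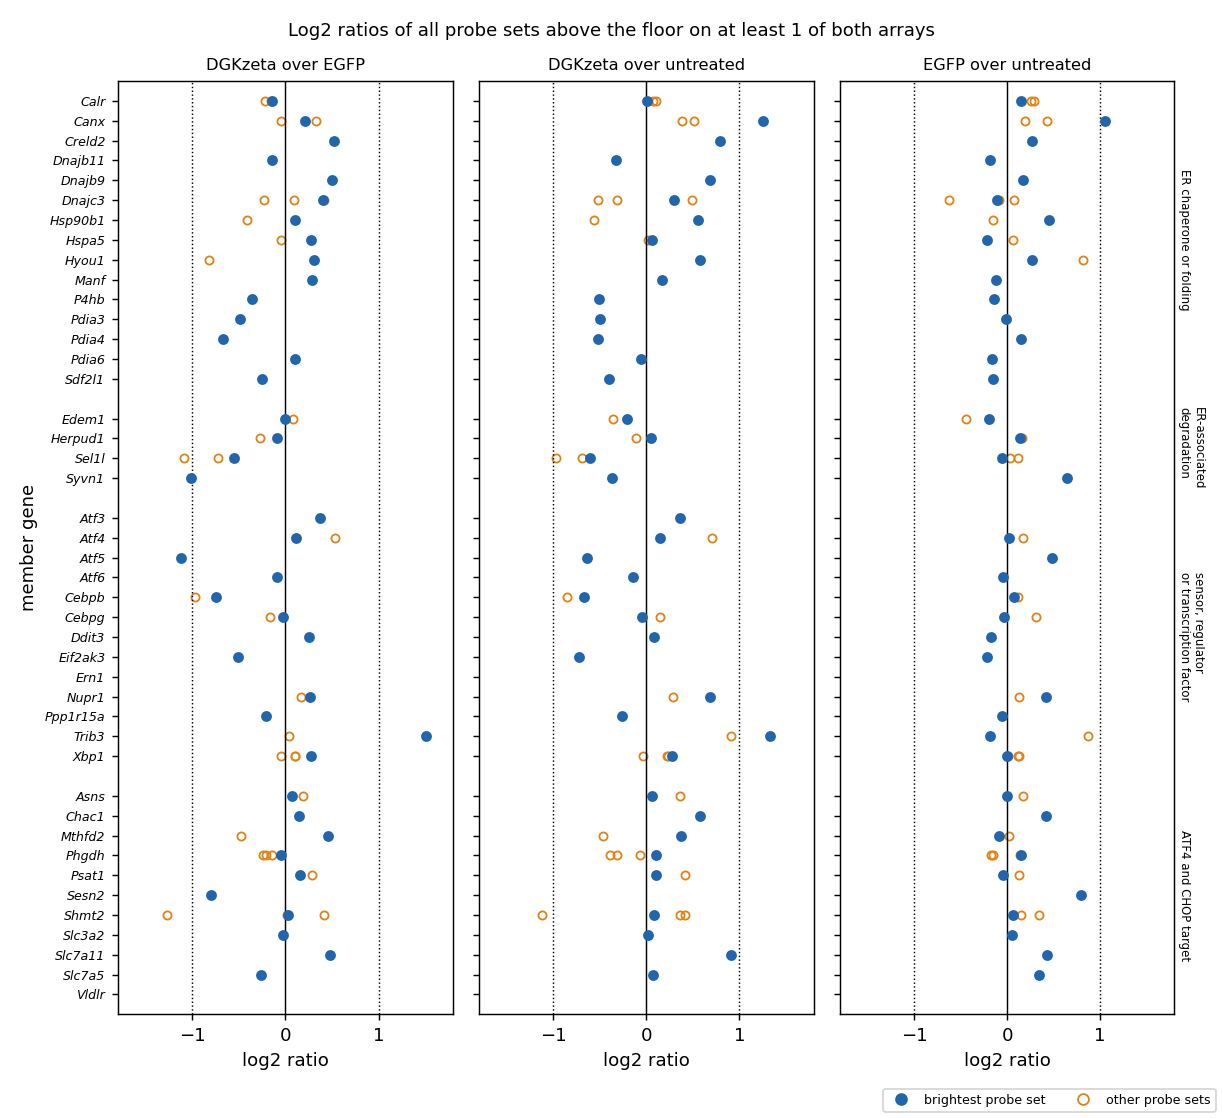
Log2 ratios of DGKzeta over EGFP, DGKzeta over untreated and EGFP over untreated for each member, with the brightest probe set as a filled point and other probe sets as open points, where at least 1 of both arrays was at or above the floor. Dotted lines mark 2-fold; Trib3, Canx, Atf5 and Syvn1 reach them by their brightest probe sets, and Shmt2 and Sel1l by another.

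Among sensors, Eif2ak3, the gene of PERK, was lowest in DGKzeta cells. It had 195 in DGKzeta cells, 278 in EGFP cells and 323 in untreated cells, a log2 ratio of -0.51 over EGFP and -0.72 over untreated cells. Its other 2 probe sets were under the floor on every array, with signals of 3.31 or less. Atf6 had 361, 386 and 399 in the same order, within 0.14 log2 units of one another, and Ern1 was under the floor on all 3 arrays, at 34.3, 61.6 and 37.0 by its brightest probe set.

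The factors downstream of these sensors were mostly level. Xbp1 had 2178 in DGKzeta, 1799 in EGFP and 1802 in untreated cells, and its 4 probe sets gave log2 ratios of -0.04 to 0.28 in DGKzeta over EGFP. Atf4, whose protein is controlled mainly by translation, had 5330.4, 4913 and 4827 by its brightest probe set. The other measured Atf4 probe set had 2095, 1448 and 1286, a log2 ratio of 0.53 over EGFP and 0.70 over untreated cells, where the brightest had 0.12 and 0.14. Ddit3, which encodes CHOP, the factor linked to cell death under lasting stress, had 481, 402 and 453, with log2 ratios of 0.26 over EGFP and 0.09 over untreated cells.

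Trib3, a pseudokinase induced by ATF4 and CHOP that in turn restrains ATF4, had the highest ratio of all members. By its brightest probe set it had a signal of 305 in DGKzeta cells, against 107 in EGFP cells, just under the floor, and 122 in untreated cells, so DGKzeta cells were high and both controls low. That is at least 2.85-fold above EGFP cells and 2.51-fold above untreated cells. The other Trib3 probe set had 201 in DGKzeta, 196 in EGFP and 91.0 in untreated cells, so that EGFP cells were as high as DGKzeta cells, and its log2 ratio in DGKzeta over EGFP was 0.04 in place of 1.51. Both probe sets had DGKzeta above untreated cells, the second by at least 1.88-fold. The first is an _x_at probe set, and the height of DGKzeta over EGFP cells rests on it.

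Atf5, a factor translated like ATF4 in stressed cells, had the lowest ratio of the members. Its 1 probe set had 466 in DGKzeta cells, 1019 in EGFP cells and 727 in untreated cells, which is 2.18-fold lower than in EGFP cells and 1.56-fold lower than in untreated cells. EGFP cells were the highest here, with a log2 ratio of 0.49 over untreated cells. Where array medians were set equal over the named probe sets, the log2 ratio of DGKzeta over EGFP was -0.76, short of 2-fold.

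Cebpb and Cebpg encode factors of the C/EBP family that are partners with which ATF4 binds DNA. Cebpb was lowest in DGKzeta cells by both of its probe sets, at 736, against 1232 in EGFP and 1172 in untreated cells, and at 83.6, under the floor, against 209.7 and 193. The log2 ratios in DGKzeta over EGFP were -0.74 and, as a bound, -0.97. Cebpg had 428, 435 and 444 in DGKzeta, EGFP and untreated cells, with a log2 ratio of -0.02 over EGFP.

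The remaining regulators were Nupr1, Ppp1r15a and Atf3. Nupr1, a small stress-induced chromatin protein, had 504 in DGKzeta, 419 in EGFP and 314 in untreated cells, with log2 ratios of 0.27 over EGFP and 0.68 over untreated cells, and 0.16 and 0.29 by its other probe set. The 0.68 exceeds the spread of a single probe set in that comparison (SD 0.50), and the 0.29 does not. Other members pass that SD too, among them Creld2 (0.79) and Dnajb9 (0.68) upward and Eif2ak3 (-0.72) and Cebpb (-0.67) downward. At 1.5-fold, a size beyond that SD, 6 of 40 members were higher and 4 lower, where 7.09% and 9.93% of all genes were. Passing the SD thus does not set a member apart. Ppp1r15a, the phosphatase subunit that reverses phosphorylation of eIF2alpha, had 311, 360.3 and 373, a log2 ratio of -0.21 over EGFP. Atf3, a factor induced by many stresses, was above the floor in DGKzeta cells alone, at 138, against 78.8 in EGFP cells and 31.9 in untreated cells, which is at least 1.29-fold higher. Over the 12 measured sensors and factors the median log2 ratio was 0.05 in DGKzeta over EGFP, with 6 above 0, and 0.02 in DGKzeta over untreated, with 6 above 0. Atf3 in both comparisons, and Trib3 in DGKzeta over EGFP, passed through DGKzeta cells alone. Their ratios there are bounds that could only lie above 0.

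Of the ATF4 and CHOP targets, the enzymes of serine and asparagine synthesis were level by their brightest probe sets. Asns, asparagine synthetase, had 3548 in DGKzeta, 3376 in EGFP and 3387 in untreated cells. Psat1, of serine synthesis, had 4197, 3764 and 3889, and Phgdh, which starts that path, had 5275, 5437 and 4911. None of these 3 exceeded an absolute log2 ratio of 0.16 in any comparison by the brightest probe set. The second probe sets of Asns and Psat1 were further up in DGKzeta over untreated cells, with log2 ratios of 0.36 and 0.42, where the brightest had 0.07 and 0.11. The other 3 Phgdh probe sets went the opposite way, with -0.39 to -0.07 where the brightest had 0.10. For Phgdh 2 further probe sets match another symbol too and were not used.

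The mitochondrial enzymes of one-carbon metabolism gave different answers by probe set. Shmt2 had 2707 in DGKzeta, 2659 in EGFP and 2547 in untreated cells by its brightest probe set. Its second had 579.6 in DGKzeta cells, against 1401 in EGFP and 1261 in untreated cells, 2.42-fold and 2.18-fold lower, which was the widest gap between 2 probe sets among the 17 members in both comparisons. Mthfd2 had 1420.4, 1032 and 1099 by the brighter probe set, a log2 ratio of 0.46 in DGKzeta over EGFP, and 818, 1140.2 and 1127 by the other, a log2 ratio of -0.48. For both genes the direction in DGKzeta cells thus rests on which probe set is read.

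Among amino acid carriers, Slc7a11, the cystine importer, had 201 in DGKzeta cells, 144 in EGFP cells and 66.9, under the floor, in untreated cells. It was 1.40-fold above EGFP cells and at least 1.87-fold above untreated cells. Its partner chain Slc3a2 had 2662, 2717 and 2619, and Slc7a5, a carrier of large neutral amino acids that pairs with the same chain, had 960.2, 1154 and 911. Their log2 ratios in DGKzeta over EGFP were -0.03 and -0.27.

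Chac1, which breaks down glutathione, had 683 in DGKzeta, 616 in EGFP and 459 in untreated cells, with log2 ratios of 0.15 over EGFP and 0.57 over untreated cells. Sesn2, an inhibitor of the growth kinase mTORC1, was above the floor in EGFP cells alone, at 76.5 in DGKzeta, 187 in EGFP and 102 in untreated cells. It was thus at least 1.74-fold lower in DGKzeta than in EGFP cells. Vldlr, a lipoprotein receptor gene, was under the floor by all 4 probe sets, with signals of 28.1 or less.

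In DGKzeta over untreated cells 9 of 9 measured ATF4 and CHOP targets had a log2 ratio above 0, from 0.02 for Slc3a2 to 0.91 for Slc7a11, with a median of 0.10. Of all 6866 genes measured there, 3317 were above 0. Sesn2 and Vldlr were under the floor on these arrays and have no ratio, and Slc7a11 passed through DGKzeta cells alone, so its ratio is a bound. With quantile normalization 7 of 9 were above 0, and by second-brightest probe sets 2 of 5. In DGKzeta over EGFP cells 6 of 10 were above 0, with a median of 0.05, and in EGFP over untreated cells 7 of 10, with a median of 0.10. Sesn2 passed through EGFP cells alone in both, as did Slc7a11 in EGFP over untreated cells, so the direction of these ratios was fixed.

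The 7 members with a C/EBP-ATF response element differed among themselves. Over untreated cells, Nupr1 had a log2 ratio of 0.68 in DGKzeta and 0.42 in EGFP cells, Chac1 0.57 and 0.42, and Slc7a11, as bounds, 0.91 and 0.43, so EGFP cells were above untreated cells too. Herpud1 had 0.05 in DGKzeta and 0.14 in EGFP cells over untreated cells, and Asns 0.07 and -0.0044. Atf3 was above the floor in DGKzeta cells alone and Vldlr in none.

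**Figure D4:**
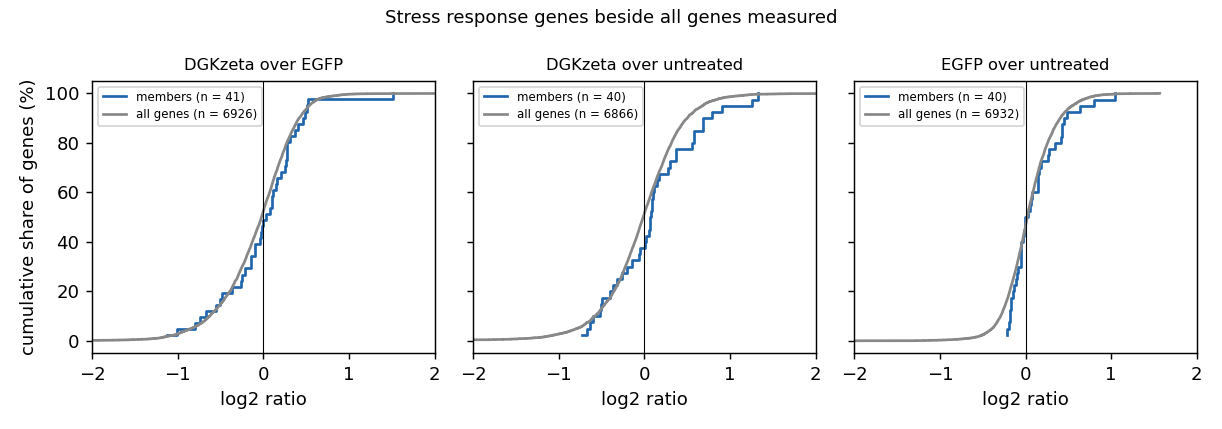
Cumulative share of genes (%) by log2 ratio for the measured members (blue) and all measured genes (grey) in each of the 3 comparisons. The curve of the members runs close to that of all genes in DGKzeta over EGFP, and lies to its right at the higher ratios in DGKzeta over untreated cells.

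A rule of 1.5-fold takes in the smaller differences. In DGKzeta over EGFP it counted 1 member higher (Trib3), where 3.51% of all genes were, and 5 lower (Atf5, Syvn1, Sesn2, Cebpb and Pdia4), where 11.6% of all genes were. In DGKzeta over untreated it counted 6 of 40 higher (Trib3, Canx, Slc7a11, Creld2, Nupr1 and Dnajb9), where 7.09% of all genes were, and 4 lower (Eif2ak3, Cebpb, Atf5 and Sel1l), where 9.93% were. In EGFP over untreated it counted 3 higher (Canx, Sesn2 and Syvn1), where 4.13% were, and 0 lower, where 1.51% were. Some of these passed the floor in 1 group alone, so their direction was fixed and their ratios are bounds. They were Trib3 (through DGKzeta cells) and Sesn2 (through EGFP cells) in DGKzeta over EGFP. In DGKzeta over untreated it was Slc7a11, through DGKzeta cells, and in EGFP over untreated Sesn2, through EGFP cells.

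Further genes of both pathways came from a list of 109 genes, of which 95 were found on the array. In DGKzeta over EGFP 0 of 87 measured genes were at least 2-fold higher and 1 was 2-fold lower, where 0.347% and 2.84% of all genes were. In DGKzeta over untreated 2 were higher and 0 lower, where 1.34% and 2.8% of all genes were. In EGFP over untreated 0 of 86 were 2-fold higher or lower, where 0.361% of all genes were higher and 0.303% lower. The medians of the list were 0.03, 0.02 and 0.06 in these comparisons. Counting a gene by any of its measured probe sets, a rule added after the data were seen, 6 of 88 genes of the list were at least 2-fold lower in DGKzeta over EGFP (Sec61a1, Lman1, Man1b1, Shmt1, Eprs and Wars), where 6% of all genes were, and 0 higher, where 0.765% were. In DGKzeta over untreated 5 of 88 were lower by that rule (Sec61a1, Lman1, Dnajc2, Shmt1 and Eprs), where 7.1% of all genes were, and 2 higher, where 2.79% were.

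The same rule gave 4 of 41 members lower in DGKzeta over EGFP (Atf5, Syvn1, Shmt2 and Sel1l) and 1 higher (Trib3), where 6% and 0.765% of all genes were. In DGKzeta over untreated it gave 1 of 40 lower (Shmt2) and 2 higher (Trib3 and Canx), where 7.1% and 2.79% of all genes were. In EGFP over untreated it gave 1 of 40 higher (Canx), where 0.692% of all genes were, and 0 lower, where 1.17% were.

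The genes past 2-fold on that list by their brightest probe sets were Man1b1, Gpt2 and Gadd45a. Man1b1, a mannosidase of glycoprotein degradation, had 129 in DGKzeta, 290.0 in EGFP and 160 in untreated cells, a log2 ratio of -1.17 over EGFP. It was highest in EGFP cells, as Syvn1, Atf5 and Sesn2 were. Gpt2, a mitochondrial alanine aminotransferase and ATF4 target, had 326, 171 and 102 by its brightest probe set, with untreated cells under the floor. Its log2 ratios were 0.93 over EGFP and, as a bound, 1.60 over untreated cells, and 0.49 and 0.59 by the next probe set. By the brightest it was counted over untreated cells through DGKzeta cells alone. Gadd45a, a gene of growth arrest and DNA damage that stress through ATF4 also induces, had 355, 240.5 and 158, a log2 ratio of 0.56 over EGFP and 1.17 over untreated cells.

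By sublist, 26 genes of ER folding had a median log2 ratio of -0.01 in DGKzeta over EGFP, with Ganab, a glucosidase subunit, lowest at -0.61 and Sec24d, of ER export vesicles, highest at 0.52. Sec61a1, the main subunit of the channel through which proteins enter the ER, had 0.36 by its brightest probe set and -1.59 to -0.97 by 4 of the other 5. Lman1, a cargo receptor for ER export, had -0.23 by its brightest and -1.12 by another. The 15 further genes of ER degradation had a median of 0.13, with 9 above 0, where the 4 members of that path had -0.33, with 0 above 0. The 12 tRNA synthetase and export genes, which ATF4 also induces, had a median of -0.07, with Eprs at 0.08 by its brightest probe set and at -1.74 and -1.50 by the others. The 11 further amino acid genes had a median of 0.10, with 8 above 0. In the arm of eIF2alpha, the kinase genes other than Eif2ak3 went different ways: Eif2ak1, the kinase linked to haem, had a log2 ratio of -0.84 over EGFP, Eif2ak2, the kinase that senses double-stranded RNA, -0.59, and Eif2ak4, the kinase that senses uncharged tRNA, 0.44. For contrast, 12 cytosolic heat shock genes had a median of 0.08, and of 0.08 to 0.45 under the other 3 scalings. All genes had -0.02, and 0.06 to 0.33 under those scalings. The inducible Hsp70 genes Hspa1a and Hspa1b are near-identical copies, so their probe sets may not tell them apart. Hspa1b had 2916 in DGKzeta, 1945 in EGFP and 1827 in untreated cells by the probe set that stands for it, and 3374, 1359 and 1249 by the next, log2 ratios of 0.58 and 1.31 over EGFP and 0.67 and 1.43 over untreated cells. Its remaining probe set had 0.81 and 0.34, and Hspa1a, above the floor in DGKzeta cells alone at 200, against 49.9 in EGFP and 57.5 in untreated cells, had 0.90 as a bound.

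The arrays themselves differed in ways that touch these values. Dgkz, the transfected gene, had 13466 in DGKzeta cells, against 1053 in EGFP and 1500.1 in untreated cells. The median signal was 92.5 on the DGKzeta, 119 on the EGFP and 111 on the untreated array, and setting the array medians equal over the named probe sets moved the median log2 ratio of all genes by 0.36 in DGKzeta over EGFP and by 0.26 in DGKzeta over untreated cells. With that scaling 31 of 41 members were above 0 in DGKzeta over EGFP, 10 of them turned from below 0. All genes then had a median log2 ratio of 0.33 in that comparison. The ratio of the 3' to the 5' control probe set of Actb, which rises when labelled product is short, was 2.55 on the DGKzeta, 1.43 on the EGFP and 1.27 on the untreated array, and that of Gapdh was 0.931, 0.902 and 0.841; their part in the ratios above was not tested.

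Of 11 markers of the myoblast line, 7 were at or above the floor on each array, with Vim, Des and Myf5 among them, while Myod1 was under it on all 3 arrays, at 23.7 in DGKzeta, 26.5 in EGFP and 35.1 in untreated cells. The summed signal of the list was 24053 in DGKzeta, 27913 in EGFP and 26276 in untreated cells, of which Vim made up 20590, 24189 and 22740. The measured markers had a median log2 ratio of -0.62 in DGKzeta over EGFP and -0.59 in DGKzeta over untreated, with 6 of 7 below 0 in each, and of 0.10 in EGFP over untreated. Of all genes, 3642 of 6926 and 3549 of 6866 were below 0 in both DGKzeta comparisons, in the same order. Where array medians were set equal over the named probe sets, the first 2 medians were -0.26 and -0.33, with 4 of 7 below 0 in each. In DGKzeta over EGFP Ncam1 had -1.31 (-0.25 by its second-brightest probe set), Des -0.96, Itga7 -0.67 and Myf5 0.73; the part of these markers in the ratios above was not tested. None of 12 markers of immune, endothelial, epithelial, fat and neural cells reached the floor on any array. In these bulk samples a gene that differs in a few cells cannot be told apart from one that differs slightly in all.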

How the data were processed

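RNA of 3 C2C12 cultures was biotin-labelled (Affymetrix one-cycle labelling, per the labels' protocols) and read on 1 array each. The deposited intensities are linear MAS5 signals, 1 per probe set, per the submitters' processing notes, with version and scaling target not given in the sources used here. The mean between the 2nd and 98th percentile was 499.9 to 500.0 on every array, so the intensities were used as scaled by the authors. Of 22690 probe sets, 64 are controls, 20380 have 1 gene symbol, 691 several and 1555 none; the last 2 groups were not named. Gene IDs were matched to RefSeq (GRCm38.p6), which held 20351 of the 20380 probe sets, with 0 symbols altered.

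A gene was represented by its probe set with the highest mean log2 signal, and values under the 50th percentile of all values (107) were set to it. Ratios are differences of floored log2 signals, counted at 2-fold, with no test, over genes measured on at least 1 of both arrays. The counting code was run on simulated arrays with less noise than the spread of a single probe set given above. Only genes well above the floor were altered there, so it does not show how reliable counts near 2-fold or near the floor are. Members and lists were chosen with earlier results of these data known. Printed are all members past 2-fold, all sensors and factors measured, and further members by role; on the wider list, genes past 2-fold and up to 3 of a sublist. The floor, the scaling, the probe set and the fold were varied (the closing section gives the effect). The number of arrays limits the precision. Protein sequences were not used here. Scripts ran in Python 3.11.15 (pandas 2.3.3, numpy 2.4.6), with figures from matplotlib 3.10.9.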

Additional observations from a re-analysis of the deposited data

How the results depend on the processing

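No paired analysis was possible because each group has 1 array, and for the same reason no replicate could be left out. Of 1103 values of single members under an alternative, 1046 stayed within the spread of a single probe set and 57 moved further. Many could not move, such as signals above a changed floor or an average over 1 probe set, so the 1046 is no measure of robustness. A change of direction was looked for only where the reported ratio was at least 2-fold, and 0 of those turned round. Counts of members past 2-fold are small, and 40 of 78 moved by over 1.5 times; the cause was not tested, except that stricter rules and higher floors leave fewer genes by construction. The counts below follow the order higher and lower in DGKzeta over EGFP (1 and 2 as reported), higher and lower in DGKzeta over untreated (2 and 0), and higher and lower in EGFP over untreated (1 and 0).

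With quantile normalization the counts were 1, 1, 3, 0, 1 and 0. Where array medians were set equal over the named probe sets they were 1, 0, 4, 0, 0 and 0, and where over those at or above the floor on every array 1, 1, 2, 0, 1 and 0. With the floor at the 25th percentile they were 1, 3, 4, 0, 3 and 0, at the 75th percentile 0, 0, 1, 0, 1 and 0, with no floor 2, 3, 4, 0, 3 and 1, and with 10.7 added as a pseudocount instead 2, 2, 4, 0, 2 and 1. Averaged over the probe sets of a gene they were 0, 2, 1, 0, 0 and 0, by second-brightest probe sets (up to 20 members) 0, 1, 0, 1, 0 and 0, and leaving out those ending in _x_at or _s_at 0, 3, 0, 1, 0 and 0. Counting a gene by any measured probe set, chosen after seeing the data, gave 1, 4, 2, 1, 1 and 0. At 1.5-fold they were 1, 5, 6, 4, 3 and 0, and at 3-fold all were 0. The counts over all genes moved too: in DGKzeta over EGFP 24 were higher and 197 lower of 6926 as reported, 194 and 613 of 10214 with the floor at the 25th percentile, 7 and 24 of 3892 at the 75th, 1051 and 1612 of 12393 with no floor, and 360 and 692 with the pseudocount. In DGKzeta over untreated the same order gave 92 and 192 of 6866, 351 and 520 of 10208, and 31 and 52 of 3874, then 1247 and 1482, and 511 and 652. In EGFP over untreated it gave 25 and 21 of 6932, 380 and 251 of 10300, and 3 and 5 of 3841, then 1339 and 1154, and 506 and 425. Averaged over probe sets, the counts over all genes were 11 and 141 of 6931, 55 and 153 of 6872, and 16 and 16 of 6935. These follow the order DGKzeta over EGFP, DGKzeta over untreated and EGFP over untreated. Second-brightest probe sets gave 14 and 171 of 2647, 61 and 224 of 2647, and 12 and 40 of 2684. Leaving out _x_at and _s_at gave 20 and 227 of 6673, 76 and 219 of 6607, and 26 and 24 of 6674. The median log2 ratio of members stayed within 0.1 of the reported one in 24 of 30 cases. The 6 others were medians set equal over the named probe sets, with 0.389, 0.334 and -0.0892 in DGKzeta over EGFP, DGKzeta over untreated and EGFP over untreated, and second-brightest probe sets, with -0.108, -0.0342 and 0.137.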
